A study of Rattus norvegicus with 2 samples.

Results

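The insulin-like growth factor (IGF) family was followed in the hypothalamus of female Sprague Dawley rats before and at puberty. It was taken as 10 genes, the ligands Igf1 and Igf2, the receptors Igf1r and Igf2r and the 6 binding proteins Igfbp2 to Igfbp7. The genes were found by their names in the deposited tables, and all 10 were found, with 12 transcripts, out of 22777 mRNA genes with 26324 transcripts. The hypothalami were taken at postnatal day 25 (prepubertal) and at postnatal day 35 (pubertal, first estrus), with no treatment named for either group. The design names 3 hypothalami per group, but each deposited table gives a single value per gene and stage, and each stage counts as 1 library here. The spread between rats is therefore unknown and no p-value is given. Both groups are whole hypothalamus, so fewer cells of a type and less RNA per cell cannot be told apart.

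IGF1 and IGF2 are small secreted proteins related to insulin. Both act on the type 1 receptor, a tyrosine kinase encoded by Igf1r, whereas the product of Igf2r, which is also the mannose 6-phosphate receptor, takes up IGF2 and leads it to lysosomes. The binding proteins hold the ligands outside the cell, keep them from the receptor or release them near it, and proteases cut them. In the brain IGF signalling is known for its part in neuronal and glial growth and survival, and IGF1 is known to act on the neurons that release gonadotropin-releasing hormone.

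Levels are given as FPKM, the fragments per length of transcript relative to all mapped fragments. Being per length, they are set beside each other between genes here, but they depend on the annotated length of each transcript. Low FPKM lay on steps from which whole fragments were recovered, at a depth of about 20770000 fragments for the prepubertal and 16210000 fragments for the pubertal library. Of low single-transcript mRNAs, 94.8% and 95.6% came out within 0.05 of a whole number. The fragments of a gene give a 95% counting interval for its level and for the ratio between the libraries, which covers counting error only and not the spread between rats. Ratios are pubertal over prepubertal throughout, and log2 ratios are of FPKM + 1, which draws low genes towards 0. The tissue label was checked on 15 hypothalamic peptide genes. All 15 were above 0 in both libraries, which is a weak check at this depth. Their summed level was 2949 and 4407 FPKM, of which Pmch held 1675 and 2723 FPKM. The other marker lists are described with the cell types. Ratios moved with length: of 10 classes of genes by mRNA length, the longest had a median log2 ratio of -0.13 and the shortest 0.08.

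All 10 IGF family genes were lower in the pubertal library, with log2 ratios between -0.55 for Igfbp3 and -0.17 for Igfbp7, although 8 of the 10 were higher once Actb was made equal. Their log2 ratios had a median of -0.30, against -0.01 for the 13804 genes with a mean FPKM of at least 1. All 10 genes had such a mean. Of these 13804 genes, 51% were lower at puberty by any amount, and of all 22777 genes 40.4% were, while 38.9% of all genes were higher. The counting interval of the ratio lay below 1 for 7 of the 10 genes, Igf2, Igf1r, Igf2r, Igfbp2, Igfbp3, Igfbp5 and Igfbp7. For Igf1, Igfbp4 and Igfbp6 it held 1. Among 12760 genes with such an interval, 24.6% lay below 1 and 19.1% above. None of the 10 genes was past 1.5-fold in FPKM + 1 in either direction, where 1.86% of all genes were lower and 1.43% higher (2.41% and 1.77% of the genes with a mean FPKM of at least 1). None was past 2-fold, where 0.373% of all genes were lower and 0.307% higher (0.514% and 0.442% of those with a mean of at least 1). With a pseudocount of 0.1 in place of 1, Igfbp3 alone was past 1.5-fold. Actb, the gene used for scaling, was itself at 763 and 576 FPKM, a log2 ratio of -0.40, and making it equal moved the median of all genes to 0.36. That scaling multiplies all pubertal values by 1 factor, so it turns signs around 0 but leaves the place of a gene among all genes nearly as it was, and the 10 IGF family genes lay below the median of all genes with it and without it.

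**Figure D1:**
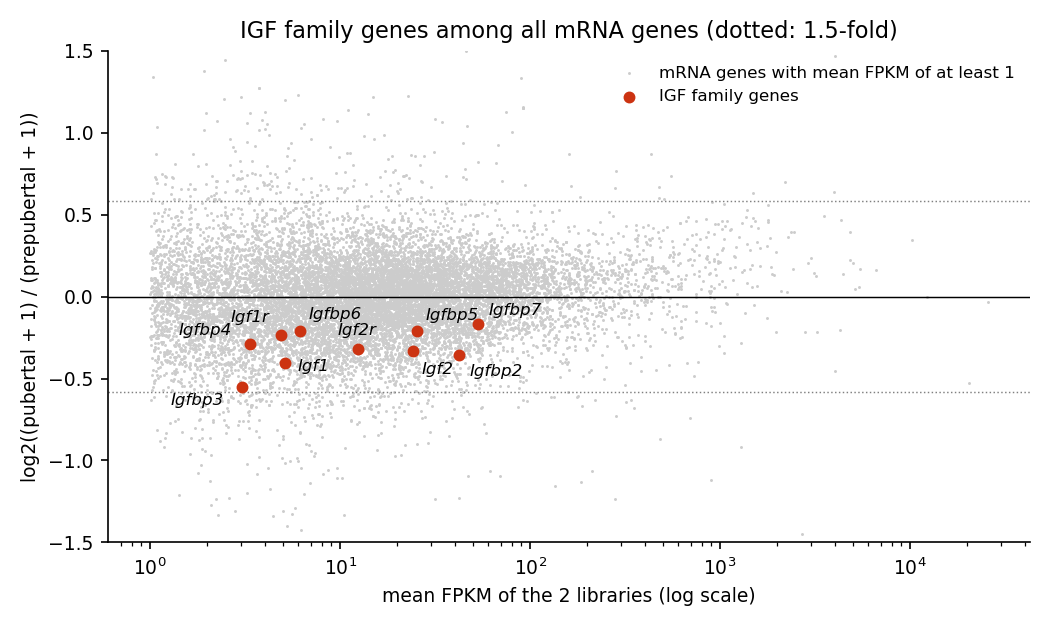
Log2 ratio of FPKM + 1 (pubertal over prepubertal, vertical axis) against the mean FPKM of the 2 libraries (log scale) for 13804 mRNA genes in grey and the 10 IGF family genes in red. Dotted lines mark 1.5-fold, and 49 genes beyond 1.5 on the vertical axis are not shown. The red points lie below 0 and between the dotted lines, although with Actb made equal, which moves the median of all genes to 0.36, 8 of them lay above 0.

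The order of levels was led by the same genes in both libraries. Igfbp7 had the highest level, followed by Igfbp2, and these neighbours were apart by more than their counting intervals. Igfbp5 and Igf2 came next, with overlapping intervals, and Igf2r stood alone in the fifth place. Igfbp6, Igf1 and Igf1r formed a group whose neighbours overlapped, and Igfbp3 and Igfbp4 were the lowest, overlapping each other. At puberty Igf1r came before Igf1, and the intervals of Igf1 and Igfbp4 overlapped as well. Igfbp7 was exceeded by 16.7% of the 13804 genes in mean level and Igfbp3 by 85.7%.

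**Figure D2:**
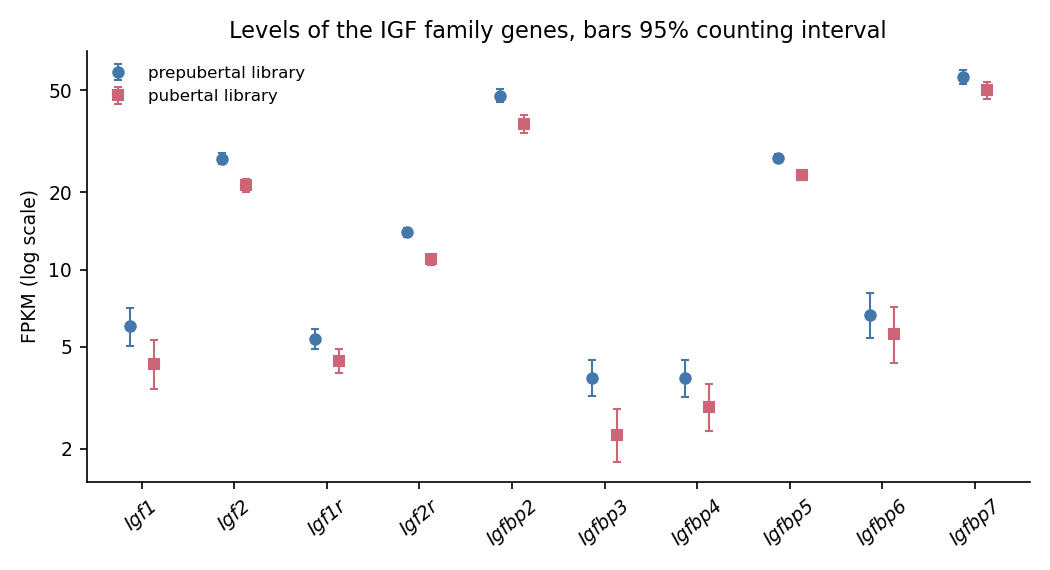
FPKM (log scale) of the 10 IGF family genes in the prepubertal (blue circles) and pubertal (red squares) library, 1 value per library, with 95% counting intervals as bars. Levels run from 2.27 FPKM for Igfbp3 to 56.2 FPKM for Igfbp7, and each pubertal value lies below its prepubertal one on the deposited scale, whereas with Actb made equal 8 genes were higher, against a median of all genes of 0.36 on the log2 scale.

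Of the ligands, Igf2 was the more abundant. Igf2 (ENSRNOG00000020369) stood at 27.1 FPKM before puberty and 21.3 FPKM at puberty, from 1842 and 1132 fragments. The ratio of Igf2 was 0.786, with a counting interval of 0.729 to 0.847, and its log2 ratio was -0.33. Of the 13804 genes, 10.3% had a lower log2 ratio than Igf2. Nearly all of this signal came from the transcript ENSRNOT00000073850 of 3530 nt, with 27.1 and 20.8 FPKM. The other Igf2 transcript, ENSRNOT00000050760 of 3463 nt, was listed at 0 before puberty and at 0.526 FPKM at puberty. This was 2.47% of the pubertal Igf2 level and stood for an estimated 27.4 fragments. A count of 0 allows up to 3 fragments, or 0.0451 FPKM of this transcript before puberty. The fragments of the Igf2 transcripts were divided by the authors' software, so the split is an estimate.

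Igf1 (ENSRNOG00000004517) stood at 6.01 FPKM before puberty and 4.29 FPKM at puberty, from 139 and 85 fragments. In FPKM the ratio of Igf1 was 0.714 and the log2 ratio -0.41, the second lowest of the family. In summed fragments its ratio was 0.781, with a counting interval of 0.589 to 1.03, so a difference was not resolved at this depth. The 2 measures of Igf1 differ because of its transcripts. The 757 nt transcript ENSRNOT00000005995 went from 2.57 to 1.42 FPKM, an estimated 26.7 and 11.7 fragments. The 1827 nt transcript ENSRNOT00000038780 was at 3.44 and 2.87 FPKM, an estimated 112 and 73.3 fragments. The shorter transcript thus made up 42.8% of the Igf1 level before puberty and 33.2% at puberty. With the longer transcript alone, its log2 ratio was -0.20. Igf2 exceeded Igf1 4.5 times in FPKM before puberty and 4.96 times at puberty.

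Of the receptors, Igf2r was above Igf1r in both libraries. Igf1r (ENSRNOG00000014187) has 1 transcript of 4686 nt and stood at 5.36 FPKM before puberty and 4.41 FPKM at puberty, from 493 and 317 fragments. The ratio of Igf1r was 0.823 (counting interval 0.712 to 0.949). Igf2r (ENSRNOG00000014997), with 1 transcript of 8787 nt, stood at 13.98 and 10.99 FPKM, from 2476 and 1520 fragments. The ratio of Igf2r was 0.786, with an interval of 0.737 to 0.838. The log2 ratios were -0.23 for Igf1r and -0.32 for Igf2r. Both transcripts fall in the longest class, which was lower as a whole, and after centring by length the log2 ratios were -0.12 for Igf1r and -0.20 for Igf2r. The intervals above do not include this shift. Igf2r exceeded Igf1r 2.61 times in FPKM in the prepubertal library and 2.49 times in the pubertal library.

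**Figure D3:**
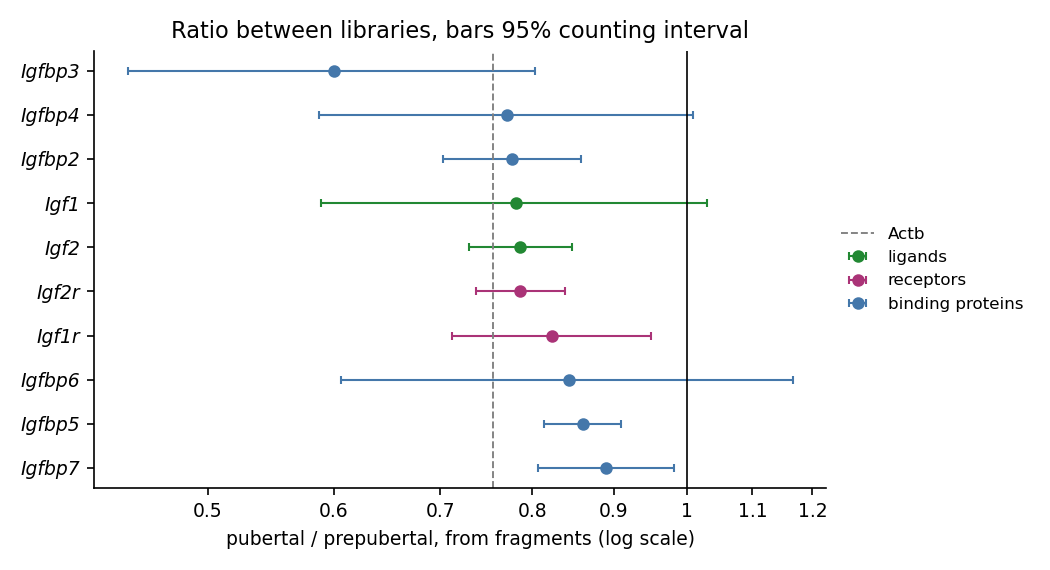
Ratio of the pubertal to the prepubertal library for the 10 IGF family genes, computed from fragments (log scale), with 95% counting intervals as bars and the ratio of Actb as a dashed line. The intervals of Igf1, Igfbp4 and Igfbp6 reach past 1. Relative to 1 all 10 points lie lower, and relative to the dashed line only Igfbp3 does; on the log2 scale of FPKM + 1 with Actb made equal, Igf1 was lower as well.

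Among the binding proteins, Igfbp3, the main carrier of IGFs in blood, had the lowest ratio. Igfbp3 (ENSRNOG00000008645) stood at 3.79 FPKM before puberty and 2.27 FPKM at puberty, from 149 and 70 fragments. The ratio of Igfbp3 was 0.60 (counting interval 0.445 to 0.803). Its log2 ratio of -0.55 was undercut by 2.88% of the 13804 genes, 398 in number. Igfbp3 was the 1 binding protein that stayed lower with Actb made equal.

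Igfbp2 and Igfbp7 were the most abundant members of the family. Igfbp2 (ENSRNOG00000016957), a binding protein made by glial cells and abundant in the developing brain, stood at 47.7 FPKM before puberty and 37.1 FPKM at puberty, from 1048 and 639 fragments. The ratio of Igfbp2 was 0.777, with an interval of 0.703 to 0.858. Igfbp7 (ENSRNOG00000002050), a protein of blood vessels that binds IGFs only weakly, stood at 56.2 and 50.02 FPKM, from 987 and 690 fragments. The ratio of Igfbp7 was 0.890 (0.806 to 0.982), the closest to 1 of the 10 genes.

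Igfbp5, which binds to the extracellular matrix as well as to IGFs, was the binding protein with the most fragments. Igfbp5 (ENSRNOG00000017206) stood at 27.2 FPKM before puberty and 23.4 FPKM at puberty, from 3159 and 2123 fragments on its transcript of 5839 nt. The ratio of Igfbp5 was 0.860, with a counting interval of 0.814 to 0.909. Its log2 ratio of -0.21 became -0.09 after centring by length and 0.18 with Actb made equal. With Actb made equal Igfbp5 was thus above 0 but still below the median of all genes, 0.36.

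Igfbp4 and Igfbp6 rested on few fragments. Igfbp4 (ENSRNOG00000010635), which IGFBP proteases cut to free IGFs, stood at 3.77 FPKM before puberty and 2.91 FPKM at puberty, from 149 and 90 fragments. The ratio of Igfbp4 was 0.772 (0.587 to 1.01). Igfbp6 (ENSRNOG00000010977), which prefers IGF2 over IGF1, stood at 6.65 and 5.61 FPKM, from 98 and 65 fragments. The ratio of Igfbp6 was 0.843 (0.607 to 1.17). For both genes no difference was detectable at this depth.

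The ratios of the members were also set against each other, which needs no scaling of the libraries as a whole but still moves with transcript length. Of 45 pairs of genes, 5 had a difference of log2 ratios whose 95% counting interval left out 0, with no adjustment over the pairs. Igfbp3 lay below Igfbp5 by a log2 difference of -0.52 (interval -0.94 to -0.10) and below Igfbp7 by -0.57 (-1.0 to -0.14). Igf2r lay below Igfbp5 by -0.13 (-0.25 to -0.01) and below Igfbp7 by -0.18 (-0.35 to -0.01). Igf2 lay below Igfbp7 by -0.18 (-0.36 to -0.003). These intervals are without centring by length, after which the log2 ratios of FPKM + 1 were -0.20 for Igf2r, -0.28 for Igf2 and -0.23 for Igfbp7. Igf2r was then no longer below Igfbp7, and Igf2 was close to it. The median log2 ratios were -0.37 for the ligands, -0.28 for the receptors and -0.25 for the binding proteins, which spanned both other groups. These medians are without centring by length, and those of the ligands and receptors rest on 2 genes each. The log2 ratio of Igf1 was -0.20 with its longer transcript alone.

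The make-up of the binding protein mRNA within each library shifted by little. Igfbp7 held 38.7% of the summed FPKM of the 6 binding protein genes before puberty and 41.2% at puberty, with counting errors of 0.886 and 1.1 percentage points. Igfbp2 held 32.8% and 30.5%, with errors of 0.819 and 0.996 points. Igfbp5 held 18.7% and 19.3%, and Igfbp6 4.58% and 4.62%. Igfbp3 held 2.61% and 1.87%, and Igfbp4 2.59% and 2.40%. The binding proteins summed to 145 and 121 FPKM and the ligands to 33.1 and 25.6 FPKM. Binding protein mRNA thus exceeded ligand mRNA 4.39 times in the prepubertal and 4.74 times in the pubertal library.

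**Figure D4:**
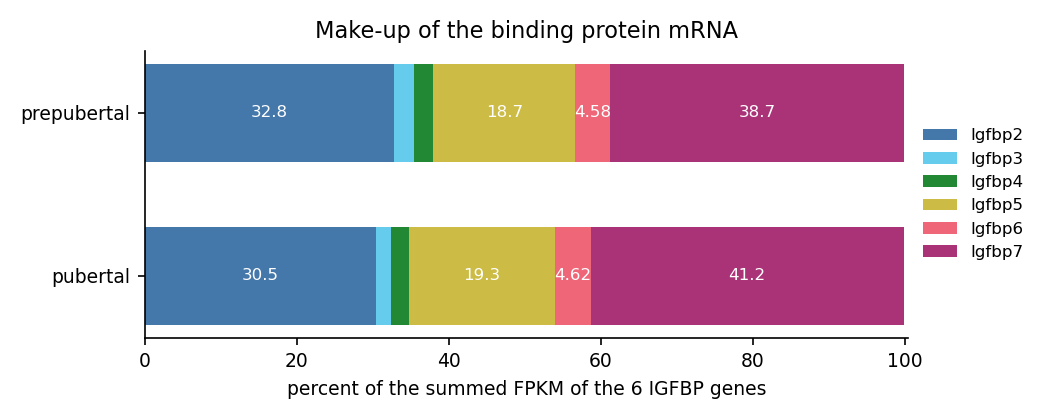
Share of each binding protein gene in the summed FPKM of the 6 IGFBP genes, in percent, for the prepubertal (top) and pubertal (bottom) library. Igfbp7, Igfbp2 and Igfbp5 make up most of both bars, and Igfbp7 widens from 38.7% to 41.2% while Igfbp2 narrows from 32.8% to 30.5%.

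Igfbp2 and Igfbp5 are neighbours on chromosome 9 and read towards each other, with starts 49.4 kb apart in the RefSeq annotation of GRCr8, and their ratios were 0.777 and 0.860. Their promoters are shown with that of Igfbp3, the gene with the lowest ratio, and among these 3 genes only the difference between Igfbp3 and Igfbp5 had an interval that left out 0. Each is the 250 bases before the annotated start, 5′ to 3′ on the gene's strand, from RefSeq (GRCr8), and capitals mark GGGCGG (GC box) or TATATA.
Igfbp2, chr9:81864561-81864810, plus strand: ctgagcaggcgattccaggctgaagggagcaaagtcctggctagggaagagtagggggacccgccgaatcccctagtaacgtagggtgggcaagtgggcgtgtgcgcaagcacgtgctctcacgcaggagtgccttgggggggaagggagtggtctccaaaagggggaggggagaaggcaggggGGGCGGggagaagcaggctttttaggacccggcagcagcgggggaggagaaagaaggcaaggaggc
Igfbp5, chr9:81914188-81914437, minus strand: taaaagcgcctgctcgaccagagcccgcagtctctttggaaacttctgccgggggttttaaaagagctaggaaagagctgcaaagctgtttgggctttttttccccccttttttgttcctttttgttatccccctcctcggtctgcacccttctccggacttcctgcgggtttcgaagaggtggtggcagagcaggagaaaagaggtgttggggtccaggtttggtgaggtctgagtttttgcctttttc
Igfbp3, chr14:86277945-86278194, minus strand: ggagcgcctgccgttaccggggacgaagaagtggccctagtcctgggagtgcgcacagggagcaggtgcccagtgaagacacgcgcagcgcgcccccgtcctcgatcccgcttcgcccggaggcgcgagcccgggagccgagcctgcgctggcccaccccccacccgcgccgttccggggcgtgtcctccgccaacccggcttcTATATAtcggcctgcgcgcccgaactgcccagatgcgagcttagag
All 10 genes matched the promoter table, with 11 starts, since Igf2 has 2. GGGCGG on either strand was found before 5 of the 11 starts, those of Igf1r, Igf2r, Igfbp2, Igfbp7 and 1 of the Igf2 starts, against 30.5% of all 33469 starts. TATAAA on either strand was found before Igfbp4 alone, against 12.9% of all starts, and TATATA before Igfbp3 alone, at 46 bases before the start as written (-46), against 5.45%. The letters CG occur 31 times in the Igfbp3 stretch, 11 times in that of Igfbp2 and 8 times in that of Igfbp5, against a median of 5 over all starts. TATATA reads the same on both strands and can share letters with TATAAA, but no start of the 11 held both. A match is a description of the letters and not a binding site.

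The study paired 2 lncRNA loci with members of the family, and their fragments were recovered too. XLOC_446331, paired with Igfbp5, rests on 16 fragments before and 19 at puberty, a ratio of 1.52 with a counting interval of 0.738 to 3.15. At this depth no difference of this lncRNA was detectable. By quantitative PCR relative to beta-actin, the paper reported both this lncRNA and rat Igfbp5 as significantly increased at puberty. It also reported lower Igfbp5 after siRNA against the lncRNA in cultured rat hypothalamic cells. Here Igfbp5 was lower on the deposited scale, at a ratio of 0.860. With Actb made equal its log2 ratio was 0.18, below the median of all genes, 0.36. The cause of this difference was not tested. XLOC_414038, paired with Igfbp6, had 168 fragments before puberty and, at the lower depth, 145 at puberty over its transcripts, which is 3.58 and 3.83 FPKM. By the estimated split, TCONS_00465243 was higher at puberty, with 115.5 and 145 fragments, a ratio of 1.6 (1.25 to 2.08). This interval does not cover the error of the split. TCONS_00465242 had an estimated 52.5 fragments before puberty and was listed at 0 at puberty. The division between these transcripts is an estimate of the authors' software.

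Of 9 relatives of the family that were not counted as members, 2 had a mean level of at least 1 FPKM. Insr, the insulin receptor, stood at 6.50 FPKM before puberty and 6.99 FPKM at puberty, a ratio of 1.07 with an interval of 0.960 to 1.2, which holds 1. Igfbpl1, a protein with an IGFBP domain known from newly formed neurons, stood at 3.95 and 6.19 FPKM, from 88 and 108 fragments. The ratio of Igfbpl1 was 1.56 (1.17 to 2.1), above 1 where the IGFBP genes were below it, and it was not past 1.5-fold in FPKM + 1 (log2 ratio 0.54). The others were near the limit of detection. Insrr had 18 and 8 fragments, Igflr1 17 and 7, and Igfn1 an estimated 6.25 and 2. Igfbp1 had 1 fragment and then 0, and Igfals, the subunit that holds IGF and IGFBP3 in the circulation, had 0 and then 2. The insulin genes Ins1 and Ins2 were listed at 0 in both libraries, which allows up to 3 fragments each.

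Proteins that cut IGFBPs, and inhibitors of such proteases, were mostly lower at puberty on the deposited scale. Of 14 genes, 10 were lower and 4 higher, with a median log2 ratio of -0.20 that became 0.17 with Actb made equal, and 2 (Mmp14 and Timp1) were past 1.5-fold in FPKM + 1. Mmp14, a membrane-bound matrix protease, stood at 6.87 and 2.98 FPKM, a ratio of 0.433 (counting interval 0.346 to 0.545). Timp1, an inhibitor of matrix proteases, stood at 7.20 and 4.2 FPKM, a ratio of 0.584 (0.379 to 0.882). Mmp2 stood at 2.81 and 1.70 FPKM, a ratio of 0.606 (0.433 to 0.840). Klk6, a serine protease of oligodendrocytes, was higher, at 30.3 and 43.9 FPKM, a ratio of 1.45 (1.29 to 1.63).

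The signalling genes behind the receptors did not share 1 direction. Of 19 measured receptor adaptors and inhibitors, 9 were lower and 10 higher, with a median log2 ratio of 0.04 (0.41 once Actb was made equal). This median was -0.08 over the genes with a mean FPKM of at least 1, and also with the highest transcript of each gene alone, so its sign was not stable. Irs1, a docking protein of the type 1 receptor, stood at 3.76 and 2.56 FPKM, a ratio of 0.682 (0.574 to 0.807). Shc3 stood at 30.2 and 22.1 FPKM and Sh2b1 at 11.2 and 8.31 FPKM, with log2 ratios of -0.44 and -0.39. Grb14, an inhibitor of insulin receptor signalling, was higher, at 7.5 and 10.8 FPKM, a ratio of 1.44 (1.22 to 1.71).

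Of the 33 genes of the PI3 kinase, AKT and mTOR branch, 25 were lower and 8 higher, with a median log2 ratio of -0.17 that became 0.19 with Actb made equal. The counting interval lay below 1 for 14 of them and above 1 for 2, against 24.6% and 19.1% of all genes with an interval. Tsc1 stood at 7.32 and 5.12 FPKM, a ratio of 0.699 (0.60 to 0.813). Gsk3b stood at 32.8 and 24.8 FPKM and Inppl1 at 15.4 and 11.6 FPKM, with log2 ratios of -0.39 and -0.37. Rps6, the ribosomal protein phosphorylated at the end of this branch, was the 1 gene of this branch past 1.5-fold in FPKM + 1, at 378 and 573 FPKM. Ribosomal protein genes have near-identical copies, so the value of Rps6 is uncertain.

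Of the 19 genes of the RAS and MAP kinase branch, 15 were lower and 4 higher, and their median log2 ratio was -0.17 (0.23 once Actb was made equal). The interval lay below 1 for 11 of the 19 and above 1 for 2. Ksr1, a scaffold of this branch, stood at 2.23 and 1.41 FPKM, a ratio of 0.633 (0.451 to 0.88). Spry4, an inhibitor of this branch, stood at 2.22 and 1.25 FPKM, a ratio of 0.563 (0.435 to 0.723). Their log2 ratios were -0.42 and -0.52, and none of the 19 was past 1.5-fold in FPKM + 1, although both ratios in FPKM were. The 3 genes named for binding Igf2 mRNA were low. Igf2bp2 had 33 and 11 fragments, a ratio of 0.426 (0.194 to 0.864), Igf2bp3 had 0 and then 1, and Igf2bp1 was listed at 0 in both libraries.

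Members of the family are made by different cells of the hypothalamus and its coverings, so marker genes of those cells were read beside them. Fibroblast and meningeal markers, cells in which Igf2, Igfbp2 and Igfbp6 are known to be expressed, were lower in 10 of 10 genes, and their median log2 ratio was -0.57 (-0.24 once Actb was made equal). Their summed level was 115.5 FPKM before puberty and 76.98 FPKM at puberty, and 5 of the 10 were past 1.5-fold in FPKM + 1. Col1a1 stood at 9.57 and 2.93 FPKM, Slc6a13 at 8.72 and 3.71 FPKM, Col1a2 at 15.8 and 8.76 FPKM and Col3a1 at 14.6 and 8.19 FPKM. These cells are not the only source, since Igfbp2 is also made by glial cells, and the 9 astrocyte genes had a median of 0.01. The part of any of these cells in the values of Igf2, Igfbp2 and Igfbp6 was not tested.

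Blood vessel markers had medians closer to 0. Of 10 endothelial genes 7 were lower, with a median log2 ratio of -0.10 and summed levels of 223 and 217 FPKM, and 1 was past 1.5-fold in FPKM + 1. This was Kdr, a receptor for VEGF, at 2.6 and 1.38 FPKM, a ratio of 0.532 (0.429 to 0.657). Of 8 measured pericyte and smooth muscle genes 6 were lower. Their median was -0.21 (-0.09 after centring by length), and they summed to 121.9 and 122.2 FPKM. Choroid plexus genes, 4 lower and 5 higher, had a median of 0.04 and summed to 42.7 and 37.8 FPKM, of which Ttr held 29.04 and 23.04 FPKM. Microglial genes, cells known to express Igf1, were higher in 10 of 10, with a median of 0.20 and summed levels of 393 and 485 FPKM, while the interval of Igf1 held 1. Of 9 astrocyte genes 3 were lower and 6 higher (median 0.01). Gja1, lower at 106 and 66.3 FPKM, was the 1 astrocyte gene past 1.5-fold in FPKM + 1. Of 8 measured tanycyte and ependymal genes 5 were lower and 3 higher (median -0.05). Neuronal genes were lower in 7 of 8, with a median of -0.18, and oligodendrocyte genes in 4 of 8, with a median of -0.04. With Actb made equal, where the median of all genes was 0.36, these medians were 0.28 for endothelial, 0.14 for pericyte, 0.33 for tanycyte, 0.23 for neuronal and 0.36 for oligodendrocyte genes. Hypothalamic peptide genes were higher in 13 of 15, and 3 were past 1.5-fold in FPKM + 1, Pmch, Oxt and Kiss1. Their median was 0.29 (0.69 once Actb was made equal, 0.19 after centring by length). Pituitary genes, a sign of neighbouring tissue, were lower in 2 of 9 and higher in 7, with a median of 0.22. They summed to 36.4 and 50.1 FPKM, of which Cga held 24.6 and 30.0 FPKM, with an interval that held 1. Prl had 0 and 41 fragments and Gh1 10 and 37, while Pou1f1 had 7 and 2 and Lhb 7 and 5. The part of these cells and tissues in the values of the IGF family was not tested.

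**Figure D5:**
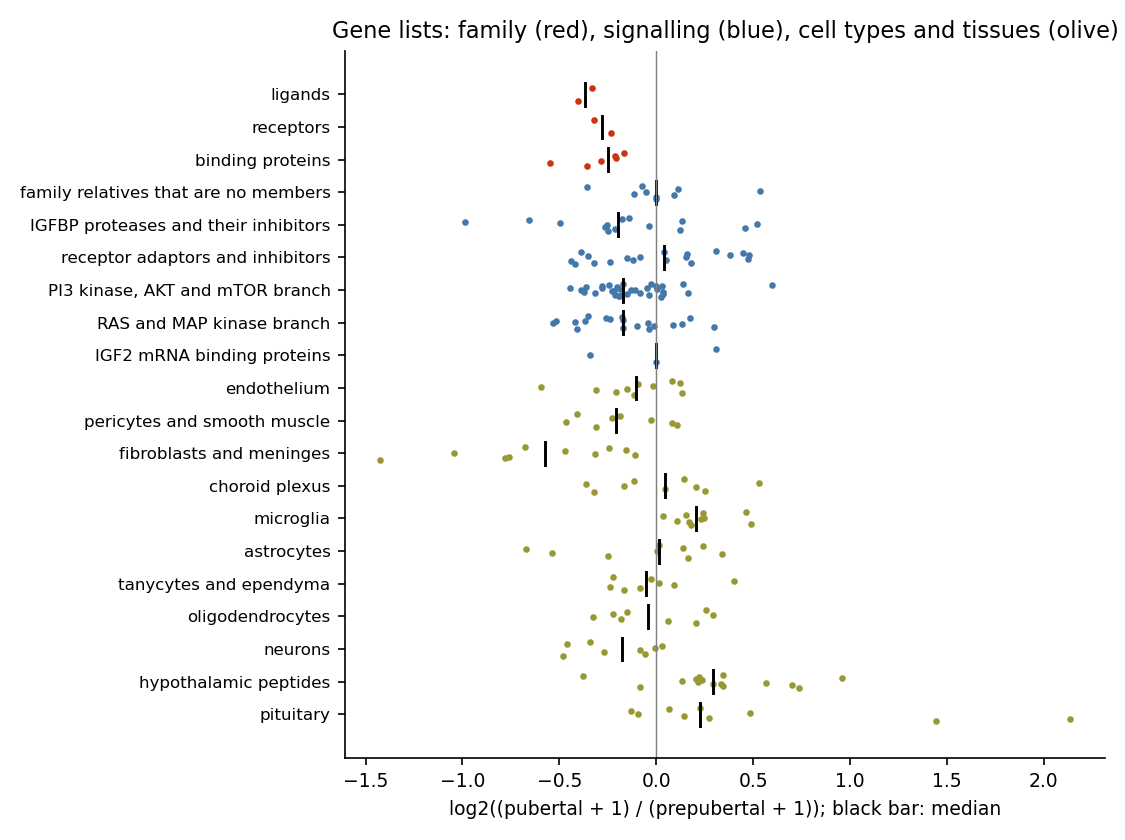
Log2 ratio of FPKM + 1 (pubertal over prepubertal, horizontal axis) of each gene in the IGF family (red), the lists of signalling and protease genes (blue) and the lists of marker genes (olive), with the median of each list as a black bar. The family and the fibroblast and meningeal markers lie wholly below 0 and the microglial markers wholly above it on the deposited scale; with Actb made equal, 8 of the 10 family genes lay above 0 and the median of all genes at 0.36.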

How the data were processed

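From RNA depleted of ribosomal RNA the authors prepared libraries that keep the strand, sequenced them from both ends, aligned the reads with TopHat and assembled transcripts with Scripture and Cufflinks. The deposited values are FPKM per transcript, estimated by the authors with Cuffdiff (version 2.1.1 and genome build Rnor_5.0, per the submitters' processing notes; the paper names a Rnor_6.0 annotation). How the rats of a stage were combined is not stated in the sources used here. The comparison table also holds the authors' log2 ratios, p-values and q-values, which were not used.

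FPKM were summed per gene. Depth and a length offset (257 and 251 nt) were fitted so that low FPKM of single-transcript mRNAs gave whole fragments, checked on transcripts of at least 1000 nt with 1 to 10 fragments. Intervals are exact Poisson (levels) and Clopper-Pearson (ratios of summed fragments) at 95%; differences between members and errors of shares use a normal approximation from fragments. Medians of all genes, and the length classes whose medians are given, use genes with a mean FPKM of at least 1. For centring by length, the 10 classes were formed over all 22777 genes instead. The median of each such class came from its genes with a mean FPKM of at least 1. Counting intervals over all genes use genes with such a mean and transcripts of at least 600 nt. No count test was possible with 1 library per stage.

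The members and gene lists were chosen with earlier results of these data known. Named are all members and relatives, and up to 4 genes per other list with the largest absolute log2 ratio among those with a mean of at least 1 FPKM; of the cell type lists, those that bear on members. Some genes that this rule names are not reported here. The Igf2 mRNA binding proteins were named after their values were seen. Not found in the mRNA table were Irs4, Rack1, Acta2 and Foxj1. Alternatives were other pseudocounts, scalings, transcripts, tables and filters, and centring in 10 classes of length; ratios without a pseudocount were added after the data were examined. Scripts ran in Python 3.11.15 with scipy 1.17.1, pandas 2.3.3 and numpy 2.4.6, and figures were drawn with matplotlib 3.10.9.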

Additional observations from a re-analysis of the deposited data

How the results depend on the processing

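Each stage is 1 library, so no paired analysis was possible because there are no replicates to pair, and no replicate could be left out. The 10 genes were lower at puberty under each alternative but scaling to equal Actb, which multiplied pubertal FPKM by 1.32. There 2 were lower and their median log2 ratio was 0.055, against 0.361 for all genes, and all 10 lay below the median of all genes there, as with another pseudocount (0.1), equal medians, the highest transcript, the comparison table, centring by length and a mean FPKM of at least 1. With Actb made equal the log2 ratio was 0.0565 for Igf2, 0.105 for Igf1r, 0.054 for Igf2r, 0.0406 for Igfbp2, 0.18 for Igfbp5 and 0.23 for Igfbp7. Under the other alternatives the median of the 10 genes lay between -0.35 and -0.26. Genes past 1.5-fold and lower numbered 1 of the 10 and 7 of the 97 measured pathway genes (relatives, proteases, signalling genes and Igf2 mRNA binding proteins) with a pseudocount of 0.1, against 0 and 2. Pathway genes past 1.5-fold and higher numbered 7 with that pseudocount, 9 with equal Actb and 0 after centring by length, against 1. With equal Actb, 1 pathway gene was lower by 1.5-fold. The cause of these shifts was not tested. At this depth the counting intervals of Igf1, Igfbp4 and Igfbp6 hold 1, that of Igfbp3 is wide, and the spread between rats is unknown for all.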
